A study of Mus musculus with 2 samples.

Results

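The genes examined here were 9 mouse genes that encode cofactors of nuclear receptors, namely the corepressor-side genes Ncor1, Hdac3 and Nrip1, the p160 coactivator genes Ncoa1, Ncoa2 and Ncoa3, the acetyltransferase genes Crebbp and Ep300, and the Mediator gene Med1. They were chosen by name among 21938 protein-coding genes. Each was joined to the thyroid hormone receptor binding sites (TRBS) of brown adipose tissue whose summit, the position of highest fragment pileup, lay within 100 kb of its transcription start site (TSS) in the GRCm38 genome. Of 5107 TRBS in the list, 7 met this rule, at 6 of the 9 genes, and 1 of the 7 lay within 30 kb.

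Brown adipose tissue came from male C57BL/6J mice aged 8 to 12 weeks with the genotype TRa1 GS-tagged, in which the receptor TRα1 carried the GS tag in brown adipocytes alone. The mice were hypothyroid after 2 weeks on food containing propylthiouracil, a drug that blocks thyroid hormone synthesis, and they received thyroid hormone during 24 h before dissection. Chromatin immunoprecipitation with an antibody used to pull down TRα gave 1 ChIP library, and unprecipitated chromatin of the same tissue, genotype and treatment gave 1 input library. With 1 library of each kind there was no replicate, so no difference was tested, and every interval given covers counting error only.

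The sites belong to a tagged receptor expressed from a transgene in 1 cell type of the tissue. TRβ, untagged TRα1 and tissue without hormone treatment were not analysed here. Read totals were not used, and the depth was read from the peaks: at the genome-wide background of 0.430 fragments, the weakest of 970 peaks had 5 ChIP fragments at its summit, so weaker occupancy was not detectable at this depth.

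Thyroid hormone receptors bind DNA mostly as heterodimers with RXR, often at a DR4 element, a direct repeat of AGGTCA with a 4 bp spacer. Without hormone, the receptor holds a corepressor complex in which NCOR1 (from Ncor1) recruits and activates the histone deacetylase HDAC3. Hormone binding turns the receptor towards coactivators: the p160 proteins NCOA1, NCOA2 and NCOA3 bind the liganded receptor, bring in the histone acetyltransferases CBP (Crebbp) and p300 (Ep300), and MED1 links the receptor to the Mediator complex and RNA polymerase II. NRIP1, also called RIP140, binds liganded receptors but represses transcription, and in fat it restrains energy-spending genes. The question put to the list was whether the genes of this machinery themselves had TRBS near them.

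Ncoa3 alone of these genes had a TRBS near its TSS, and 5 others had TRBS farther out. Within 30 kb the count was 1 of 9 genes (11.1%, 95% Wilson interval 1.99 to 43.5%), beside 16.7% of all protein-coding genes. Within 100 kb the count was 6 of 9 genes (66.7%, 35.4 to 87.9%), beside 38.3% of all protein-coding genes. Both shares of all genes lay inside the intervals. Ncoa1, Ncoa2, Nrip1, Ep300 and Med1 therefore had TRBS at 30 to 100 kb alone, and Ncor1, Crebbp and Hdac3 had none within 100 kb. The 30 kb share lay below or above that of all genes depending on the start and the limit: 5 of the 9 genes (55.6%, 26.7 to 81.1%) had a TRBS within 30 kb of at least 1 annotated transcript start, beside 19.6% of all protein-coding genes, which is below that interval. These 5 were Ncoa3, Nrip1, Ncoa1, Ncoa2 and Ep300. Apart from Ncoa3, each counted by a transcript start outside the GENCODE basic set. That transcript was labelled nonsense-mediated decay at Ncoa1, retained intron at Ep300 and protein-coding at Nrip1 and Ncoa2. The nearest basic-set start lay 47.8 kb from the TRBS at Ncoa1, 73.8 kb at Ep300, 48.0 kb at Nrip1 and 59.7 kb at Ncoa2. Within 50 kb of the gene TSS the count was 3 of 9 (33.3%, 12.1 to 64.6%), beside 24%, which is inside it. The count was 1 again when starts were limited to the GENCODE basic set, a choice made after the data were seen.

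**Figure D1:**
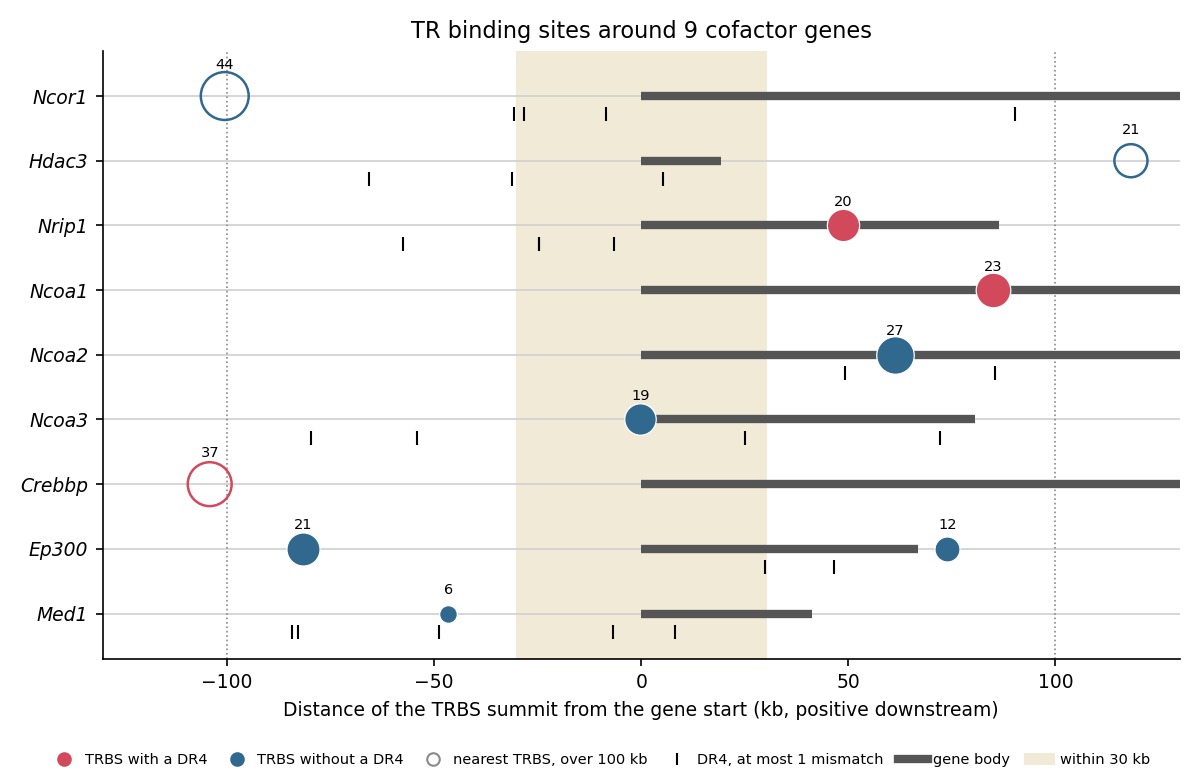
TRBS around the 9 cofactor genes, by distance of the TRBS summit from the gene TSS in kb (horizontal axis, positive downstream, the strand of each gene taken into account). Filled circles are TRBS within 100 kb and open circles are the nearest TRBS of genes that had none there, with area scaled to the ChIP fragments printed above each. Red marks a TRBS with a DR4, ticks are DR4 elements with at most 1 mismatch, dark bars are gene bodies and the shaded band is the 30 kb limit, which holds the Ncoa3 TRBS alone.

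The p160 coactivator gene Ncoa3 (chr2:165992636-166073242, + strand) had its TRBS at the promoter, at chr2:165992243-165992596, with the summit 202 bp upstream of the TSS. MACS gave this TRBS a score of 158, where the score is 10 times the −log10 of the q-value, rounded down. The fold over the local input background was 10.5, and the peak rested on 19 ChIP fragments at the summit (exact Poisson interval 11.4 to 29.7) over a background of 0.913 fragments. In this list that is a middling strength: 55.3% of all TRBS had fewer fragments. A TRBS within 1 kb of the TSS was found at 3.02% of protein-coding genes, and among the 611 TRBS in such a position 55.0% had fewer fragments than the one at Ncoa3, with a median of 17.

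The Ncoa3 TRBS held no DR4 with at most 2 mismatches over the 12 half-site bases, and its closest element had 4 mismatches. DR4 elements were present in 22.7% of the TRBS within 1 kb of a TSS. It did hold 1 exact half-site, AGGTCA or GGGTCA on either strand, which 59.7% of the TRBS within 1 kb of a TSS also held. That half-site lay at chr2:165992336-165992341, 95.5 bp from the summit. The sequence around it is shown because this was the only TRBS within 30 kb of any of the 9 genes (RefSeq GRCm38, chr2:165992293-165992386, + strand), with the half-site, which reads on the opposite strand, in capitals.

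Ncoa3 TRBS, upstream part: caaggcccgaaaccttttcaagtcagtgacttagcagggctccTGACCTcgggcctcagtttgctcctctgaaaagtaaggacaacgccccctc

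Of the corepressor-side genes, Nrip1 alone had a TRBS within 100 kb. The Nrip1 gene (chr16:76287400-76373827, − strand) held it inside its body, at chr16:76324880-76325193, in intron 3 of a transcript with 4 exons and 48.7 kb downstream of the TSS. The summit had 20 fragments (12.2 to 30.9) over a background of 0.913, the fold was 11.0 and the score 171, and 58.1% of all TRBS had fewer fragments. Nrip1 was also the nearest protein-coding gene by TSS. The summit lay 1426 bp upstream of the start of another annotated protein-coding transcript of Nrip1, which is not in the GENCODE basic set.

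The Nrip1 TRBS held a DR4 with 2 mismatches, AGGTCTtagcAGGACA, centred 5.5 bp from the summit. It was 1 of the 2 DR4 elements among the 7 TRBS. No exact half-site was found in this TRBS, so both hexamers of the element carried a mismatch. The other DR4 was in the Ncoa1 TRBS, described below with the p160 genes. Both are printed with their surroundings, 50 bp on either side of the summit, because they are the sites where occupancy and a DR4 coincided (RefSeq GRCm38, Nrip1 at chr16:76325034-76325134 on the − strand, Ncoa1 at chr12:4392290-4392390 on the + strand), with the half-sites of the DR4 in capitals.

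Nrip1 intronic TRBS: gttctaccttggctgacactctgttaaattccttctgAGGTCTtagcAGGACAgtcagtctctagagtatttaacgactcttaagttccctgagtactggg
Ncoa1 intronic TRBS: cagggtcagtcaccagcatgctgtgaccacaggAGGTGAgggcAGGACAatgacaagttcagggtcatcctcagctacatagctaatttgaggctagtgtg

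Ncor1 (chr11:62316426-62458541, − strand) and Hdac3, the paired corepressor and deacetylase, had no TRBS within 100 kb. For Ncor1 the nearest lay just outside the limit, 100.5 kb upstream of the TSS, and it was a strong one: 44 fragments (32.0 to 59.1), a fold of 26.9 and more fragments than 89.4% of all TRBS. It lay 7.91 kb downstream of the TSS of Ubb, a polyubiquitin gene, and held no DR4. The nearest TRBS to Hdac3 lay 118 kb downstream of its TSS with 21 fragments (13.0 to 32.1), and it was 17.3 kb from the TSS of Pcdhgc5, a protocadherin gene.

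Among the p160 genes, Ncoa1 and Ncoa2 each had 1 TRBS within 100 kb, and both lay in introns of their own gene. The Ncoa1 TRBS (chr12:4392149-4392540) was in intron 2 of a transcript with 23 exons, 84.8 kb downstream of the gene TSS at chr12:4477182 and 24.5 kb downstream of the nearest annotated start of any Ncoa1 transcript. It had 23 fragments (14.6 to 34.5) over a background of 1.18, a fold of 11.0 and a score of 187, and 65.9% of all TRBS had fewer fragments. Its DR4, AGGTGAgggcAGGACA, had 2 mismatches and was centred 9.5 bp from the summit. The same TRBS held 3 exact half-sites, more than any other of the 7, the nearest 13.5 bp from the summit.

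Ncoa2 (chr1:13139105-13374083, − strand) had the strongest of the 7 TRBS. It was found at chr1:13312584-13312934, in intron 1 of a transcript with 23 exons, 61.3 kb downstream of the TSS and 13.0 kb upstream of the nearest annotated start of any Ncoa2 transcript. The summit had 27 fragments (17.8 to 39.3) over a background of 0.924, the fold was 14.6 and the score 268. This was level with the upper quartile of the list, and 74.0% of all TRBS had fewer fragments. No DR4 and no exact half-site was found in it, and the closest element, centred 7.5 bp from the summit, had 3 mismatches. It is printed because the strongest TRBS of the set fell short of the DR4 limit by 1 base (RefSeq GRCm38, chr1:13312691-13312791, + strand), with the half-sites of the closest element in capitals.

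Ncoa2 intronic TRBS: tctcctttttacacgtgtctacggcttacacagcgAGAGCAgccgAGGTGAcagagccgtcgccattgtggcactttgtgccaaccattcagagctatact

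The acetyltransferase genes differed from each other in their counts. Crebbp (chr16:4081328-4213997, − strand) had no TRBS within 100 kb, and its nearest lay 104 kb upstream with 37 fragments (26.1 to 51.0), a fold of 23.6 and a DR4. That TRBS was about as far from the TSS of Adcy9, an adenylyl cyclase gene, at 102 kb. Ep300 (chr15:81585351-81652077, + strand) had 2 TRBS, the most of any of the 9 genes, on opposite sides of the gene. Both were intergenic and both were nearer to the TSS of another gene.

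The stronger of the pair at Ep300 (chr15:81503518-81503893) lay 81.6 kb upstream of its TSS with 21 fragments (13.0 to 32.1), a fold of 9.92 and a score of 159. Its nearest protein-coding TSS was that of Rbx1, a subunit gene of cullin ubiquitin ligases, at 37.4 kb. The other (chr15:81659107-81659469) lay 73.9 kb downstream of the Ep300 TSS, past the end of the gene and 14.4 kb downstream of its nearest annotated transcript start, with 12 fragments (6.20 to 21.0), a fold of 7.06 and a score of 76. It was 4645 bp upstream of the TSS of L3mbtl2, a Polycomb-related gene. Neither held a DR4; the downstream TRBS held 2 exact half-sites, the nearer 22.5 bp from the summit, and the upstream TRBS held none.

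Med1 (chr11:98152154-98193293, − strand), which encodes the Mediator subunit contacted by nuclear receptors, had the weakest TRBS of the set. It lay at chr11:98239671-98240107, 46.6 kb upstream of the Med1 TSS and in an intron of Cdk12, a transcription-elongation kinase gene whose TSS was nearer at 36.8 kb. The summit had 6 fragments (2.2 to 13.1) over a background of 0.913 and a fold of 3.66. Its score of 13 was the lowest value in the whole list, and only 0.705% of all TRBS had fewer fragments. The study's methods dropped peaks with a score under 60, which the deposited list still held, and without such peaks Med1 had no TRBS within 100 kb, leaving 5 of the 9 genes with one, beside 33.6% of all protein-coding genes.

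In fragments, the 7 TRBS ranked from Ncoa2 (27) through Ncoa1 (23), the upstream site of Ep300 (21), Nrip1 (20), Ncoa3 (19) and the downstream site of Ep300 (12) to Med1 (6). Neighbours in this order did not differ beyond counting error. Of the 21 pairs, 2 had intervals that did not overlap, Med1 against Ncoa2 and Med1 against Ncoa1. The median of the 7 was 20 fragments, beside 17 over all TRBS with quartiles of 11 and 27. The median fold was 10.5 against 9.83, and the median width was 363 bp against 424 bp. A score of at least 60 was reached by 6 of the 7 TRBS, beside 82.4% of all TRBS. In fragments 6 of the 7 TRBS thus lay between the quartiles of the list, and the Med1 TRBS lay below the lower one.

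**Figure D2:**
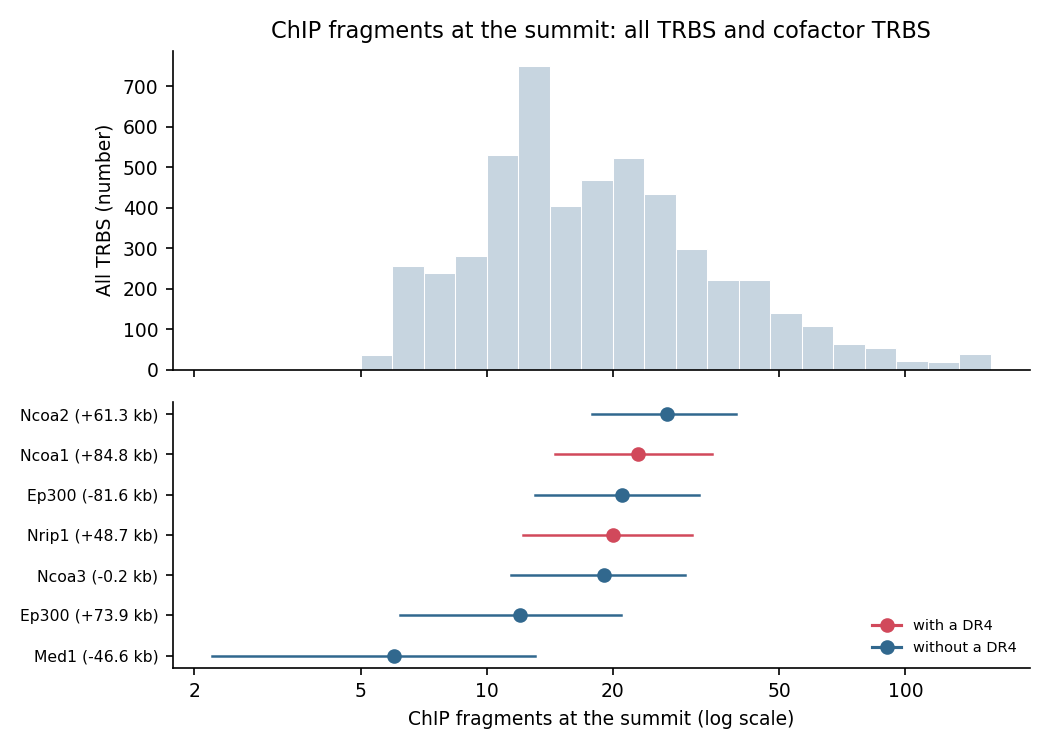
ChIP fragments at the summit, on a log scale shared by both panels, for all 5107 TRBS (upper panel, number of TRBS per bin, the last bar taking the 38 highest) and for the 7 TRBS within 100 kb of a cofactor gene (lower panel, points with exact Poisson 95% intervals, named by gene and distance from its TSS). The 7 points run from 6 fragments at Med1 to 27 at Ncoa2, and red marks the 2 TRBS with a DR4.

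By position, 3 of the 7 TRBS lay in introns of the cofactor gene itself, 1 in an intron of Cdk12, 2 between genes and 1 at a promoter. The same shares over all TRBS are not given here, so these counts only describe the 7. The cofactor gene had the nearest protein-coding TSS for 4 of them, those of Ncoa1, Ncoa2, Ncoa3 and Nrip1. The other 3 were the sites counted for Ep300 and Med1. With all annotated genes in place of protein-coding genes, the cofactor gene was nearest for 1 TRBS. Ncoa1, Ncoa2 and Nrip1 had 0 other protein-coding TSS within 100 kb of their own, while Ncoa3 and Ep300 had 1 each and Med1 had 2. The 9 genes are long, 1.03 Mb in all, and their bodies held 2.90 TRBS per Mb (0.599 to 8.48), beside 2.90 per Mb over all protein-coding genes. Per gene, 0.778 TRBS lay within 100 kb of a cofactor TSS (0.313 to 1.60), beside 0.759 over all protein-coding genes. At both scales the density was close to that of the rest of the genes.

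None of the 7 cofactor TRBS had another TRBS within 10 kb (0%, Wilson interval 0 to 35.4%), beside 29.7% of all TRBS, a share inside that interval. The nearest neighbour was 35.9 kb away for the downstream site of Ep300 and 348 kb away for Ncoa2, with the other 5 between these values. Ncoa1, Ncoa2, Ncoa3, Nrip1 and Med1 thus had 1 TRBS each in the 100 kb window, and no cofactor gene had a group of close sites.

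The distance from the TSS to the nearest TRBS, whatever its size, had a median of 73.9 kb over the 9 genes (0.202 to 118 kb). Over all protein-coding genes the median was 162 kb, with quartiles of 52.8 and 457 kb. A nearer TRBS than that of Ncoa3 was found at 1.08% of protein-coding genes. For the other 8 this share ran from 22.7% at Med1 and 23.5% at Nrip1 through 27.7% at Ncoa2, 31.6% at Ep300 and 34.6% at Ncoa1 to 38.4% at Ncor1, 39.2% at Crebbp and 42.4% at Hdac3. The last 3 genes therefore missed the 100 kb limit narrowly, at 100.5, 104 and 118 kb, while the farthest inside it was Ncoa1 at 84.8 kb.

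**Figure D3:**
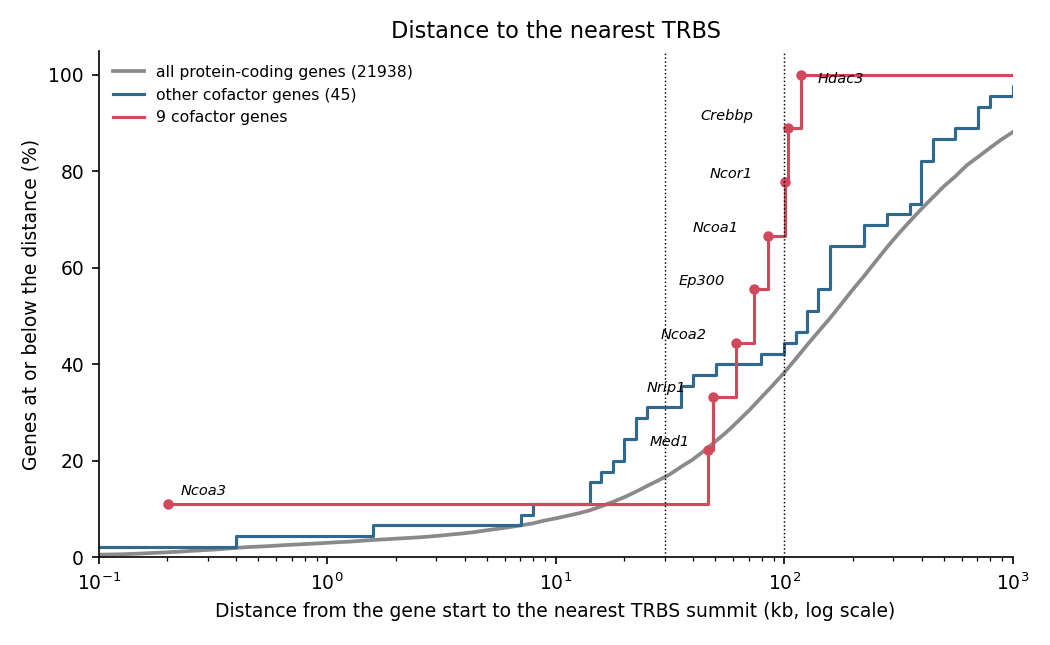
Share of genes (%) whose nearest TRBS summit lies at or below a given distance from the TSS (kb, log scale), for the 9 cofactor genes (red steps, each gene named), 45 other cofactor genes (blue) and 21938 protein-coding genes (grey). Dotted lines mark 30 and 100 kb. Ncoa3 lies at 0.202 kb and the other 8 genes lie between 46.6 and 118 kb.

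A DR4 was present in 2 of the 7 cofactor TRBS (28.6%, 8.22 to 64.1%), beside 32% of all TRBS (30.7 to 33.3%). The count depended on the mismatch limit, with 0 of 7 at 1 mismatch or fewer and 4 of 7 at 3 or fewer. An exact half-site was present in 4 of 7, those of Ncoa1, Ncoa3, Med1 and the downstream site of Ep300, beside 72.5% of all TRBS. Motifs of other factors were searched on both strands. The C/EBP motif was written as TTACGCAAC, TTACGCAAT, TTGCGCAAC or TTGCGCAAT with at most 1 mismatch. The EBF motif was TCCCNNGGGA without mismatch, and the NF1 motif was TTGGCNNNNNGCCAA with at most 1 mismatch. None of these 3 motifs was found in any of the 7 TRBS, while 16.1%, 4.54% and 2.94% of all TRBS held them, respectively. The Wilson interval of 0 of 7 runs from 0 to 35.4%, and all 3 shares lay inside it. A match to letters is a description and does not show which protein was bound.

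Many DR4 elements lay around these genes, but few of them in a TRBS. Within 30 kb of the 9 TSS there were 70 DR4 elements with at most 2 mismatches, from 3 at Ncoa1 to 12 at Ncor1, and none of the 70 lay in a TRBS. A count of 0 allows a share of up to 4.29% (3 counts of the total), and around all protein-coding genes the share was 1.15%, so a difference was not detectable. Within 100 kb, 2 of 225 lay in a TRBS (0.889%, 0.244 to 3.18%), the elements of Nrip1 and Ncoa1, beside 0.976% around all protein-coding genes.

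The closer matches lay in no called peak, which does not exclude binding too weak to be called. Of the 24 elements with at most 1 mismatch within 100 kb, spread over 7 of the 9 genes, none lay in a TRBS, which by the same 3 counts allows a share of up to 12.5%, beside 2.51% around all protein-coding genes. Ncoa1 and Crebbp had no such element. At Ncoa2 an element with 1 mismatch lay 12.2 kb from the summit of its TRBS, and at Med1 one lay 2.26 kb from the summit, both outside the peak.

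The only perfect DR4 within 100 kb of any of the 9 genes was 24.6 kb upstream of the Nrip1 TSS, at chr16:76398432-76398447. It lay 73.4 kb from the summit of the intronic Nrip1 TRBS and in no TRBS. The same 16 bases occurred 6 times in the genome, and 1 copy lay in a TRBS. Perfect DR4 elements, whatever their spacer sequence, lay in a TRBS in 5.54% of cases genome-wide. The site is printed for comparison with the occupied Nrip1 element, which had 2 mismatches (RefSeq GRCm38, chr16:76398412-76398477, + strand), with the perfect half-sites in capitals.

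Nrip1 upstream DR4, not in a TRBS: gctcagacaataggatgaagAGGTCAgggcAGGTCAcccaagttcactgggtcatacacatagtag

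Some of these elements were copies of a repeat. Of the 24, 7 (29.2%) lay in repeat-masked sequence, beside 24.1% of such elements in the genome. Sequences were compared for the 21 elements outside Hdac3, and AGGTCAgaagAGGGCA occurred 3 times among them, 8.54 and 28.3 kb upstream of the Ncor1 TSS and inside Ncoa2. The genome held 1253 copies of it, of which 4 lay in a TRBS. Genome-wide, elements with at most 1 mismatch lay in a TRBS in 0.875% of cases inside repeats and in 2.24% outside them.

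RefSeq promoter windows, 250 bp upstream to 50 bp downstream of a start, were matched for 6 of the 9 genes, with 8 windows in all (Ncor1 and Nrip1 with 2 each). Ncoa2, Ncoa3 and Hdac3 were not matched. One window (1 of 8, 12.5%), at Nrip1, held an exact half-site, beside 27.5% of 32851 windows in the table. No window held a DR4 with at most 2 mismatches, beside 3.02% of all windows. Counts of this size over 8 windows do not set the cofactor promoters apart.

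A wider list of 45 other cofactor genes was examined in the same way. Of these, 14 (31.1%, 19.5 to 45.7%) had a TRBS within 30 kb, and 20 (44.4%) had a TRBS within 100 kb, beside the 16.7% and 38.3% of all protein-coding genes. The 16.7% was below the interval at 30 kb. With scores of at least 60, the limit of the study's methods, 11 of 45 genes counted (24.4%, 14.2 to 38.7%) beside 14.1%, also below. With scores of 100 or more 7 of 45 counted (15.6%, 7.75 to 28.8%) beside 11.3%, which is inside that interval. Within 10 kb 5 of 45 counted (11.1%, 4.84 to 23.5%) beside 8.09%, also inside. The list was chosen with earlier results of these data known, so these intervals describe counts and are no test. Whether the wider list and the 9 genes differed was not tested. By role, the genes with a TRBS within 30 kb were 5 of 15 in corepressor and deacetylase complexes (Tbl1xr1, Gps2, Hdac5, Rcor1 and Hr), 5 of 16 coactivators and acetyl- or methyltransferases (Ppargc1a, Ppargc1b, Kat2a, Kat2b and Trim24), 3 of 10 Mediator genes (Med16, Med17 and Med24) and 1 of 4 chromatin remodelling genes (Smarcd3). At Hdac5, Kat2a and Med16 every TRBS within 30 kb had a score under 60. More than 1 TRBS within 30 kb was present at 7 of the 45 and at 0 of the 9, beside 4.55% of all protein-coding genes.

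The 30 TRBS within 30 kb of these genes had a median of 14 fragments (5 to 65), and 13 of them (43.3%) held a DR4, beside 17 fragments and 32% over all TRBS. Hr gave 5 of the 13, and without Hr the count was 8 of 23 (34.8%). The strongest was at Ppargc1a, the gene of the thermogenic coactivator PGC-1α, with 65 fragments. The next, with 59, was counted for Hr, which encodes the corepressor Hairless, but it lay nearer to the TSS of Nudt18, and the strongest TRBS for which Hr was the nearest gene had 51. The highest values at the other genes were 25 at Med17, 22 at Tbl1xr1, a subunit gene of the NCOR complex, and 18 each at Ppargc1b and Smarcd3. Those TRBS of Med17 and Smarcd3 lay nearer to the TSS of Taf1d and Chpf2, respectively. For 15 of the 30 TRBS, at 8 genes, the listed gene had the nearest protein-coding TSS, and the others were nearer to another gene. The 3 TRBS counted for Med24, singled out after their values were seen, lay in introns of Thra, which encodes the receptor TRα itself.

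**Figure D4:**
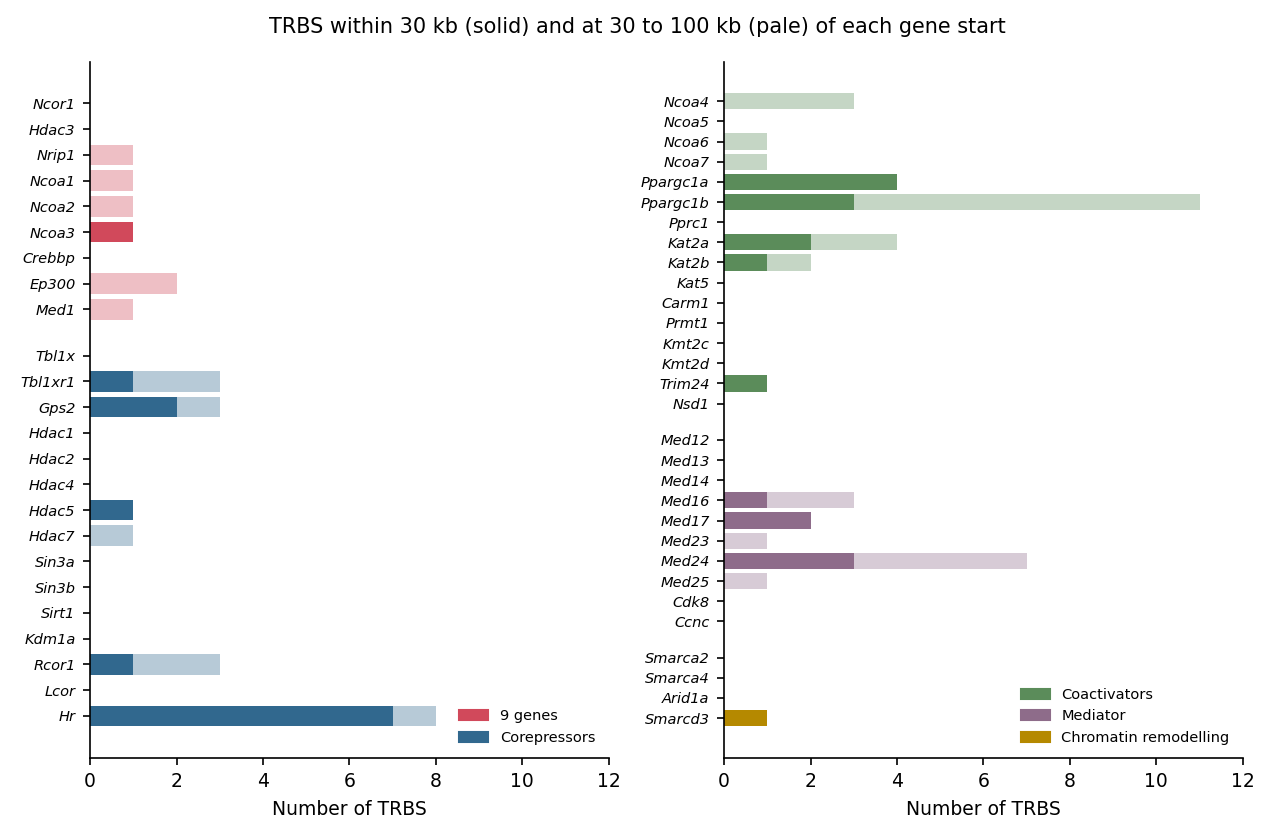
Number of TRBS per gene, within 30 kb (solid) and at 30 to 100 kb (pale) of the TSS, for the 9 cofactor genes (red) and 45 other cofactor genes coloured by role. Of the 9 genes Ncoa3 alone has a solid bar, of 1 TRBS, while Hr has 7 and Ppargc1a has 4.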

How the data were processed

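The submitters' processing notes name Bowtie2 2.3.2.2 for alignment to mm10 and MACS2 2.1.1.20160309.6 for peaks, which the authors called with the input as control. The deposited score of a peak is 10 times its −log10 q-value, the deposited fold is the ratio of ChIP pileup to local background at the summit with 1 added to both, and the deposited −log10 p-value comes from a Poisson test by the authors. Fold and p-value together fixed the whole number of ChIP fragments and the background for 5090 of 5107 peaks within 0.0005 of the −log10 p-value, uniquely for 5052, a step tested on simulated data.

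A TSS was the start of the gene in GENCODE (21938 protein-coding, 55413 annotated genes). DR4 elements were searched over the full width of a peak, on either strand, allowing up to 2 mismatches in 12 bases. Promoters began 1000 bp before a TSS and ended 100 bp after it. Shares have 95% Wilson and fragments exact Poisson intervals. Without molecular identifiers, fragments may repeat a molecule. No differential test was possible, and counts were set beside all genes or all TRBS.

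The members and lists were chosen with earlier results of these data known. All 9 members were named with every TRBS within 100 kb, together with genes nearer to those TRBS, and, of the wider list, all genes with a TRBS within 30 kb, with values for at most 6. A further gene planned for that list is not reported here and is in none of its counts. Alternatives changed the score limit, TSS, peak position, merging, distances, gene set, mismatches and search window. Python 3.11.15, pandas 2.3.3, scipy 1.17.1 and pysam 0.24.0 were used.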

Additional observations from a re-analysis of the deposited data

How the results depend on the processing

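Of 71 recomputed values, 54 stayed within 1.5 times the main value, and 17 moved. The share of the 9 genes with a TRBS within 30 kb (11.1%) was below that of all protein-coding genes (16.7%) and turned above it with any annotated transcript start (55.6% beside 19.6%), with 50 kb (33.3% beside 24%) and with 10 kb (11.1% beside 8.09%). Starts of any annotated transcript gave 5 TRBS at 5 genes within 30 kb, 2 of them with a DR4, and 12 TRBS within 100 kb, 4 with a DR4. With 50 kb in place of 30 kb there were 3 TRBS at 3 genes, 1 with a DR4, and with 50 kb in place of 100 kb the same counts of 3, 3 and 1, with the cofactor gene nearest for 2. A DR4 was present in 0 of the 7 TRBS with at most 1 mismatch and in 4 with at most 3. Against all annotated genes the cofactor gene had the nearest TSS for 1 TRBS. The wider list gave 7 of 45 genes (15.6%) at a score of at least 100, beside 11.3% of all protein-coding genes, and 5 of 45 (11.1%) at a limit of 10 kb, beside 8.09%. Peak edges, merging within 1000 bp, a score of at least 60 and a DR4 search within 100 bp of the summit moved no value by more than 1.5 times. Starts of the basic set, added after the data were seen, gave 1 gene within 30 kb (beside 17.3% of all genes), 6 within 100 kb (beside 38.8%) and 18 of the wider list.

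No paired analysis was possible because there was 1 ChIP and 1 input library and no result came from a test. With 7 TRBS the shares have wide intervals, and peaks of fewer than 5 fragments could not be seen.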

Other observations

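Beyond 30 kb, some genes of the wider cofactor list had TRBS stronger than any of the 7 above. They were singled out after their values were seen. Ppargc1b, which encodes the coactivator PGC-1β, had 11 TRBS within 100 kb, the strongest with 112 fragments (92.2 to 135) at 86.8 kb upstream of its TSS, and 2 of the 11 held a DR4. That strongest TRBS was nearer to the TSS of Arhgef37. Tbl1xr1 had TRBS of 38 and 48 fragments at 89.9 and 81.0 kb upstream, beside 22 fragments at 1.43 kb. No member of the 9 genes had a group of TRBS of this kind.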
